A study of Mus musculus with 96 samples.

Results

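Mouse bone marrow-derived macrophages given Tunicamycin before lipopolysaccharide (LPS, a molecule of the bacterial outer membrane that activates them) were compared with macrophages given the vehicle DMSO before LPS. The comparison rests on 8 Tunicamycin libraries and 8 DMSO libraries, wells E to H on plates 1 and 2, out of 96 libraries in the series. They were taken by the treatment names in the sample titles, and no measured value chose them. The mice were wild type C57BL/6 males aged 8 weeks, MCSF in conditioned medium drove differentiation of the marrow, and both groups received compound or vehicle for 30 min and then LPS until lysis at 4 h. Further references, with 8 libraries each, were BrefA with LPS, Halofuginone with LPS, and NoStim (wells A to D, no LPS and no stated vehicle). The sources used here state no dose, and no well received Tunicamycin without LPS. The labels do not say whether wells were separate cultures or came from separate mice, so p-values measure the spread between wells, which may be technical.

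Tunicamycin blocks the first step in building the sugar chain that is attached to newly made proteins in the endoplasmic reticulum (ER), where the enzyme encoded by Dpagt1 acts. Proteins that lack these chains fold poorly, and cells answer with the unfolded protein response. Its sensors are PERK (Eif2ak3), IRE1 (Ern1) and ATF6. PERK lowers protein synthesis and raises translation of ATF4, a transcription factor for amino acid supply, redox and stress genes such as Ddit3 (CHOP). IRE1 splices the mRNA of XBP1, and ATF6 and XBP1 act on genes of ER chaperones and of ER-associated degradation. In macrophages the same sensors are known to modify the response to LPS, which runs through an inflammatory arm (NF-κB) and an interferon arm.

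Counting was at the 3′ ends of mRNAs, and all levels below are CPM, that is counts scaled to a library total of 1e+06. Total counts were 203117 to 360197 in Tunicamycin libraries, against 201162 to 323049 in DMSO libraries (exact permutation test, two-sided, p = 0.707), where the 96 libraries spanned 80196 to 379198. Rn45s, the ribosomal RNA precursor, took 16.9% ± 5.25 of counts in Tunicamycin libraries and 19.4% ± 4.64 in DMSO libraries (SD, n = 8 each; exact permutation p = 0.337). Macrophage markers were present, with a summed level of 7574 to 12407 CPM in Tunicamycin libraries and 7410.1 to 10879.9 in DMSO libraries. The summed markers of neutrophils, lymphocytes, dendritic cells, fibroblasts, and erythroid or mast cells stayed at or under 64.9 CPM for each list in every Tunicamycin library and at or under 54.7 in every DMSO library, and Elane, Mpo, Cd3e, Cd8a, Flt3, Clec9a and Hbb-b1 had no count in these 16 libraries. One library stood furthest from its group. Each library was correlated with the mean profiles of all groups on the other plate. Tunicamycin plate 2 well F had a correlation of -0.042 across 2683 genes with the Tunicamycin profile of plate 1, where the next lowest of the 8 libraries was 0.219 (plate 1 well H), and it was closest to the NoStim profile (0.351). Of the other 7 Tunicamycin libraries, whose correlations with the Tunicamycin profile were 0.219 to 0.468, only plate 1 well E was closest to it. Wells F, G and H of plate 1 were closer to Caspase-1, wells E and G of plate 2 to Baflo and well H of plate 2 to ZVAD, all groups with LPS, and 6 of the 8 DMSO libraries were closest to the DMSO profile. For wells of plate 1, the Tunicamycin profile was the mean of plate 2 with well F included. The part of that well in their correlations was not tested. Results are therefore given with and without Tunicamycin plate 2 well F.

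A small share of the genes tested was called between Tunicamycin and DMSO libraries. Of 4963 genes tested, 169 rose and 68 fell at an adjusted p under 0.05, which is 4.78% of genes tested (3.41% higher and 1.37% lower). Without plate 2 well F the counts were 159 and 73 of 5084 (3.13% and 1.44%, 4.56% in all), and 190 of the 237 genes were called again. The median log2 fold change over all genes tested was 0.03. In edgeR's test 940 genes had an unadjusted p under 0.05, so genes that were not called are not shown to be unchanged. Among the genes past the threshold, 85 were called in each of the 8 fits that left out 1 Tunicamycin library, 53 higher and 32 lower. The number of calls depended most on wells F, G and H of plate 1, and leaving out 1 of them gave 137, 115 or 111 called genes. Leaving out any other Tunicamycin library gave 232 to 266, with 263 for well E of plate 1. With same-named wells of both plates summed to 4 per group, 85 genes rose and 39 fell out of 6947 tested (1.22% and 0.561%, 1.78% in all).

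Called genes had smaller fold changes on plate 2. Of the 234 called genes with values on both plates, 230 had the same direction on each, and 203 changed by more on plate 1. These genes were called in the fit of both plates, which favours a shared direction, so the 230 are no separate support. Genes called higher had a median log2 fold change of 0.76 on plate 1 and 0.36 on plate 2, and genes called lower had -1.002 and -0.56. Taken alone, plate 1 gave 173 genes higher and 183 lower (3.38% and 3.58%, 6.96% in all). Plate 2 gave 4 higher (Atf4, Cxcl1, Cxcl2 and Ppfibp2, 0.0819%) and 1 lower (Irf8, 0.0205%), 0.102% in all. Ppfibp2 had 172 CPM in well F of plate 2 and at most 41.6 in the other Tunicamycin libraries, and over both plates it was not called without that library (adjusted p = 0.322). Without well F, plate 2 alone called Atf4, Cxcl2, Saa3 and Irf8. The difference between plates was itself tested as an interaction within the 16 libraries. It was past the threshold for 2 of 3157 genes (0.0634%, 0.0317% in each direction): Stap1, where the log2 change on plate 2 exceeded that on plate 1 by 1.94 ± 0.37 (adjusted p = 0.0302), and Fcgr2b, where the difference was -1.91 ± 0.39 (adjusted p = 0.0486). Stap1, an adaptor protein gene, had log2 fold changes of -1.25 on plate 1 and 0.71 on plate 2, and Fcgr2b, the inhibitory Fc receptor gene, 1.90 and 0.01. At an unadjusted p under 0.05 there were 345 genes. Without well F of plate 2 no gene passed in edgeR's test, with 384 genes at an unadjusted p under 0.05 and both genes at an adjusted p of 0.05003.

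**Figure D1:**
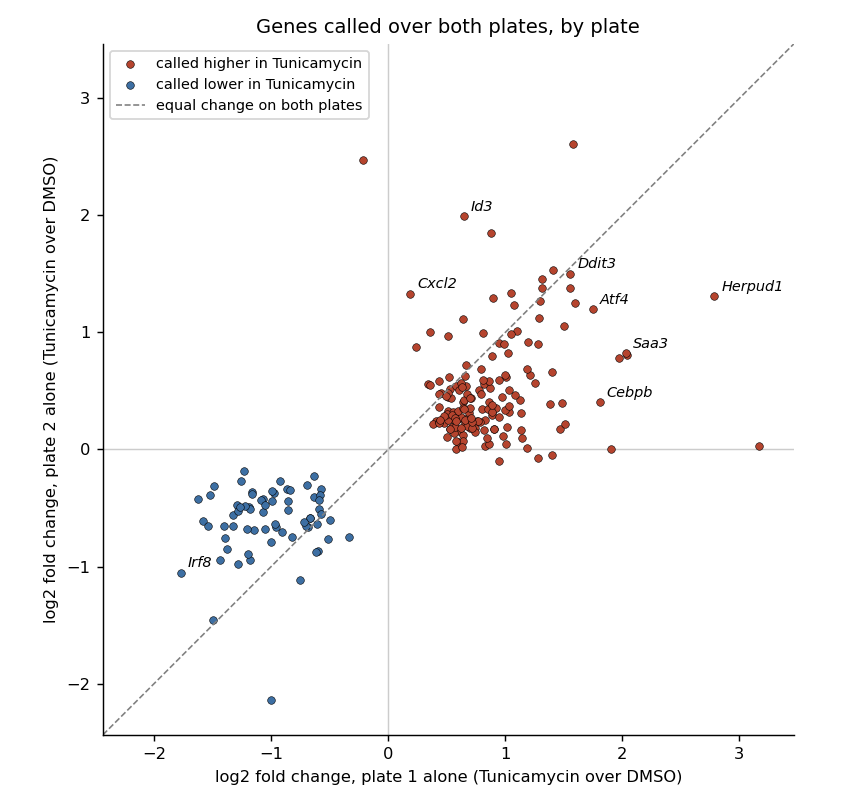
Log2 fold changes of Tunicamycin over DMSO on plate 1 alone (horizontal axis) and plate 2 alone (vertical axis) for the 234 genes called over both plates, with genes called higher in red, genes called lower in blue and a dashed line where both plates are equal. Nearly all points keep their sign on both plates (230 of 234), and 203 genes changed by more on plate 1. The genes were called in the fit of both plates, which favours a shared sign.

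Among regulators of the unfolded protein response, Atf4 and Ddit3 rose. They were 2 of 8 tested members of the list of ER stress sensors and transcription factors (25%, against 3.41% of all genes tested). Of this list 0 members fell (median 0.21 over the list, 0.03 over all genes). Atf4 (ENSMUSG00000042406.8, chromosome 15, 80255184 to 80257541 of mm10), the transcription factor downstream of PERK, had 219 to 568.1 (median 348) CPM in Tunicamycin libraries and 79.5 to 171 (median 119.7) in DMSO libraries. Every Tunicamycin library lay above every DMSO library, on both plates. The log2 fold change was 1.52 ± 0.16 (adjusted p = 8.19e-14), and 1.49 without plate 2 well F. Ddit3, the transcription factor CHOP that is linked to cell death under lasting ER stress, had 22.99 to 72.4 (median 34.5) CPM in Tunicamycin libraries and 4.97 to 38.9 (median 9.42) in DMSO libraries. Its groups overlapped only through 1 DMSO library, plate 1 well G, at 38.9 CPM, and the other 7 DMSO libraries lay at or below 16.2. The log2 fold change was 1.56 ± 0.33 (adjusted p = 0.000878), with 1.55 on plate 1 and 1.502 on plate 2.

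Members of this list that did not pass included Xbp1, with 32.4 to 73.0 (median 63.9) CPM in Tunicamycin libraries and 19.9 to 66.3 (median 38.1) in DMSO libraries (0.57 ± 0.24, adjusted p = 0.165). Counts of 3′ ends do not show the splicing of Xbp1 mRNA. Atf6 had a log2 fold change of 0.26 ± 0.31 (adjusted p = 0.71). The sensor genes Ern1 and Eif2ak3 were too low to be tested, with means of 11.1 and 5.34 CPM in Tunicamycin libraries and 13.8 and 6.47 in DMSO libraries. Dpagt1, the target of the compound, was also under the filter, at 0 to 16.7 (median 4.49) CPM in Tunicamycin libraries and 0 to 22.1 (median 13.2) in DMSO libraries.

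**Figure D2:**
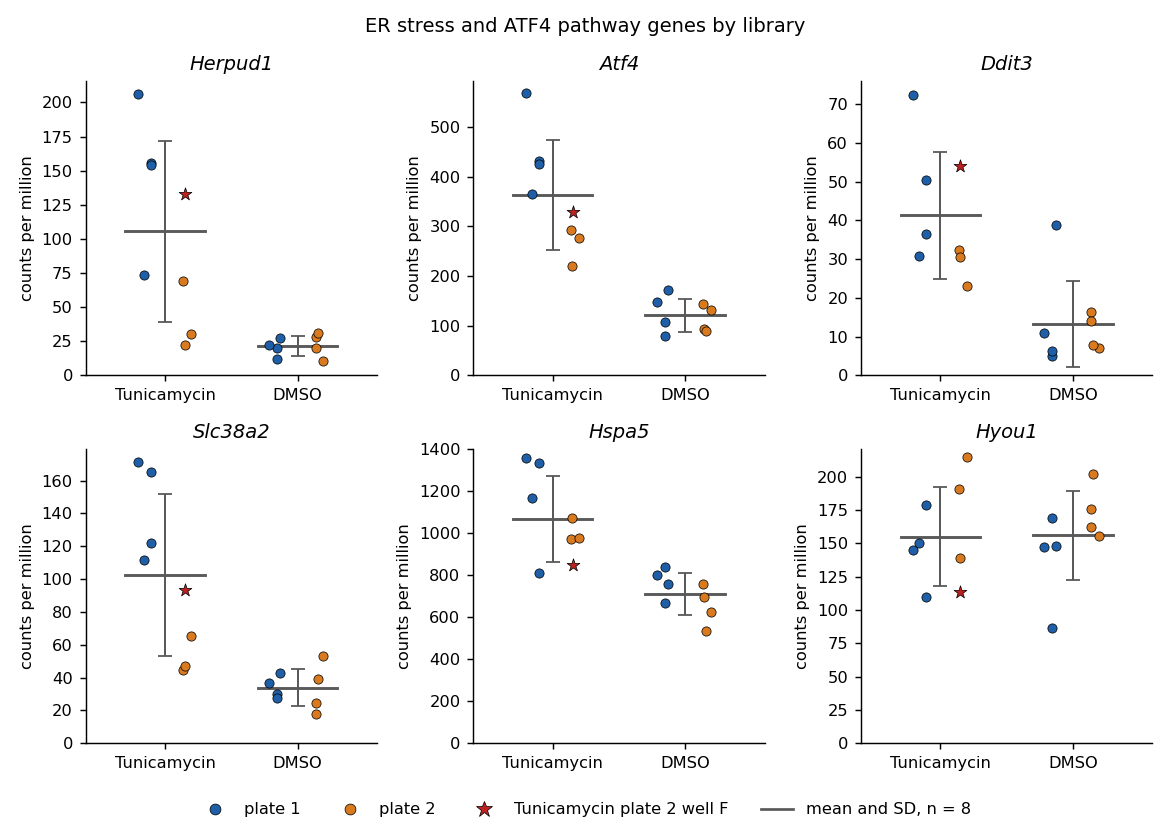
CPM (vertical axes, from 0) in each of the 8 Tunicamycin libraries and 8 DMSO libraries for 6 genes of the unfolded protein response and the ATF4 pathway, coloured by plate, with the mean and SD of each group; a star marks Tunicamycin plate 2 well F. Atf4 separates the groups fully, Herpud1 separates them on plate 1, and Hyou1 overlaps throughout.

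Herpud1, whose protein helps to clear misfolded proteins at the ER membrane, had the highest fold change of the genes named here (ENSMUSG00000031770.16, chromosome 8, 94386438 to 94395377 of mm10). On plate 1 the 4 Tunicamycin libraries held 73.2 to 206 CPM, against 12.4 to 27.2 in DMSO libraries. On plate 2 the Tunicamycin libraries held 22.2 to 133 CPM and the DMSO libraries 10.6 to 31.1. The groups were apart on plate 1 and overlapped on plate 2, where wells G and H of Tunicamycin lay within the DMSO range. The log2 fold change was 2.18 ± 0.28 (adjusted p = 2.46e-09), and it was 2.05 without plate 2 well F, 2.78 on plate 1 and 1.31 on plate 2. Of 20 tested members of the ER-associated degradation list Herpud1 alone rose (5%, against 3.41% of all genes tested), and 0 fell (median 0.07). Sel1l, which holds the ubiquitin ligase complex of this pathway together, had 142 to 286 (median 202) CPM in Tunicamycin libraries and 125 to 248 (median 197) in DMSO libraries (0.09 ± 0.15, adjusted p = 0.798).

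Hspa5 encodes BiP, the main chaperone of the ER and a usual marker of ER stress (ENSMUSG00000026864.13, chromosome 2, 34771970 to 34777547 of mm10). It had 811 to 1361 (median 1024) CPM in Tunicamycin libraries and 533 to 842 (median 728) in DMSO libraries. The groups overlapped only at their edges, where plate 1 well H of Tunicamycin lay below the highest DMSO library. The log2 fold change was 0.55 ± 0.11 (adjusted p = 0.000129), with 0.53 on plate 1 and 0.51 on plate 2. Of 14 tested ER chaperones Hspa5 alone rose (7.14%, against 3.41% of all genes tested), and 0 fell (median 0.11). Hsp90b1 (GRP94) had 0.15 ± 0.17 (adjusted p = 0.7), Hyou1, an exchange factor for BiP, -0.03 ± 0.17 (0.947), and the lectin chaperone gene Calr -0.18 ± 0.24 (0.746). Dnajb9, a BiP cochaperone, had 0 to 46.2 (median 15.8) CPM in Tunicamycin libraries and 12.2 to 24.8 (median 16.7) in DMSO libraries (-0.21 ± 0.39, adjusted p = 0.841).

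The promoters of Herpud1 and Hspa5 are shown because these ER genes rose and hold the letters of elements known from the unfolded protein response, and that of Calr because it holds ERSE, as Hspa5 does, and the gene did not pass the test. Windows run from 250 bases before to 50 after the start of the gene (RefSeq, GRCm38.p6), on the strand of the gene, and capitals mark the letters of a motif.
Herpud1, chr8:94386179-94386478, plus strand: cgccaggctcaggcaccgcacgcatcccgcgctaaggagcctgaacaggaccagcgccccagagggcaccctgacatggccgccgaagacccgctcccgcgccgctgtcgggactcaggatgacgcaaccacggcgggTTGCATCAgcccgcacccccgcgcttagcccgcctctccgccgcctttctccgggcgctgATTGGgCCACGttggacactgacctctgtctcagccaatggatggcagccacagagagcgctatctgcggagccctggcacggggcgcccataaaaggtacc
Hspa5, chr2:34771840-34772139, plus strand: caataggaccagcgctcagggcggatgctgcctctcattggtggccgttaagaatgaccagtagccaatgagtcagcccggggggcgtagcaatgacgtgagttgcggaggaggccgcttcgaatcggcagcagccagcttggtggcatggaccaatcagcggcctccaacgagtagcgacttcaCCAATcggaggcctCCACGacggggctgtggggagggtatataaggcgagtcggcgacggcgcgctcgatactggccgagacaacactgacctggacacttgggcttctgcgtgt
Calr, chr8:84846882-84847181, minus strand: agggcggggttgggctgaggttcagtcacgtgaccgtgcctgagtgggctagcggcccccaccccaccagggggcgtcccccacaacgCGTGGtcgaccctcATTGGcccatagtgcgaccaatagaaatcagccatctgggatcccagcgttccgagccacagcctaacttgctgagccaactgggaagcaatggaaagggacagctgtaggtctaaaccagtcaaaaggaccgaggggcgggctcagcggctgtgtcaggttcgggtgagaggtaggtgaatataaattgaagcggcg
The element ERSE was searched as CCAAT and CCACG with 9 bases between them, ERSE-II as ATTGG and CCACG with 1 base between them, UPRE as TGACGTGG, and the ATF4 and CEBP element CARE as TGATGNAA, each on both strands and counted separately, overlaps included. ERSE stood in 7 of the 3778 promoters of tested genes with a window (0.185%), among them 2 of 134 called higher (Hspa5 and Hnrnpa3) and 6 of 98 of the ER lists. ERSE-II stood in 7 of 3778 as well, 2 of them called higher (Herpud1 and Rcl1). UPRE stood in 38 (1.01%) and in 0 called genes. CARE stood in 114 (3.02%). Among them were 6 of 134 genes called higher (4.48%, Bcl2a1a, Bcl2a1b, Bcl2a1d, Herpud1, Jdp2 and Ubb) and 3 of 51 called lower (5.88%, Fgl2, Il12b and Irf2). The Bcl2a1 copies are near-identical, so they are not independent matches. The Herpud1 window holds ERSE-II and, on the minus strand, CARE. A match gives letters only, and windows without one were not searched further.

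The other ER lists held 0 or 1 called members each, where 3.41% of all genes tested rose and 1.37% fell. The lists are short, so such counts may lie near these shares. For disulfide formation in the ER, 0 of 12 tested members passed in edgeR's test and in DESeq2 (1 higher at an unadjusted p under 0.05, median -0.01). For translocation into the ER, 0 of 20 passed in either tool (2 higher unadjusted, median 0.22), and Sec61a1, the channel itself, had 0.08 ± 0.23 (adjusted p = 0.897). For transport from ER to Golgi, 0 of 35 passed in either tool (6 higher unadjusted, median 0.20). In the N-glycosylation list, whose pathway the compound blocks, 1 of 19 tested members fell and 0 rose (median -0.05). This was Magt1, a subunit of the oligosaccharyltransferase, at 53.4 to 133 (median 89.4) CPM in Tunicamycin libraries and 85.0 to 159 (median 130.4) in DMSO libraries (-0.55 ± 0.16, adjusted p = 0.0292). It was past the threshold in 5 of the 8 fits without 1 library and not with wells summed (adjusted p = 0.0738).

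Most ATF4 targets had fold changes above 0, and few passed the test. Of 20 tested ATF4 targets, 3 rose (Slc38a2, Cebpb and Jdp2; 15% of members, against 3.41% of all genes tested) and 0 fell. The median was 0.46, 16 members lay above 0, where 2630 of all 4963 genes did, and 9 were higher at an unadjusted p under 0.05. Without plate 2 well F, 4 rose. Slc38a2, an amino acid transporter, had 44.6 to 172 (median 103) CPM in Tunicamycin libraries and 17.6 to 53.2 (median 33.3) in DMSO libraries. NoStim libraries held 45.1 to 149 CPM, so the Tunicamycin level overlapped that of cells without LPS. All 4 Tunicamycin libraries of plate 1 lay above every DMSO library, and those of plate 2 overlapped the DMSO range. Its fold change was 1.502 ± 0.23 on the log2 scale (adjusted p = 9.18e-07), with 1.98 on plate 1 and 0.78 on plate 2. Cebpb, a transcription factor of both stress and inflammatory programmes, had 94.4 to 621 (median 244) CPM in Tunicamycin libraries and 77.8 to 139 (median 121) in DMSO libraries (1.26 ± 0.20, adjusted p = 5.21e-06), with 1.81 on plate 1 and 0.41 on plate 2.

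Asns, asparagine synthetase, had 0 to 48.7 (median 23.7) CPM in Tunicamycin libraries and 0 to 24.4 (median 9.61) in DMSO libraries (1.20 ± 0.42). Its adjusted p was 0.0805, and 0.0445 without plate 2 well F, where it had no count. Ppp1r15a, which restores protein synthesis, had 0.26 ± 0.31 (adjusted p = 0.715), Atf3 -0.11 ± 0.15 (0.749) and Gdf15 0.91 ± 0.46 (0.261). Chac1, a glutathione-degrading enzyme induced by ATF4, was under the filter. It had a count in all 4 Tunicamycin libraries of plate 1, in 0 of the 4 of plate 2 and in 1 of the 8 DMSO libraries. Of 15 tested tRNA synthetases, 1 rose (6.67%, against 3.41% of all genes tested) and 0 fell, with a median of 0.25. It was Mars (1.35 ± 0.39, adjusted p = 0.0232), called in 6 of the 8 fits without 1 library.

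Among 16 tested apoptosis regulators, 3 rose (18.8%, against 3.41% of all genes tested) and 0 fell (median 0.23). They were Bcl2a1a, Bcl2a1b and Bcl2a1d, survival genes of the BCL2 family, with log2 fold changes of 0.57 ± 0.16, 0.49 ± 0.14 and 0.47 ± 0.14. The copies are near-identical, so counts may have been split among them and they are not 3 independent results, and with wells summed none passed (adjusted p = 0.0707 to 0.0965). The proapoptotic genes Bbc3 and Bcl2l11 had 0.67 ± 0.38 (adjusted p = 0.346) and 0.04 ± 0.13 (0.911). Of the list of mRNAs cut by IRE1, 2 were tested: Pmp22 rose (0.43 ± 0.12, adjusted p = 0.0167; 0.0732 with wells summed) and Bloc1s1, the classic substrate, had 0.07 ± 0.27 (adjusted p = 0.922).

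**Figure D3:**
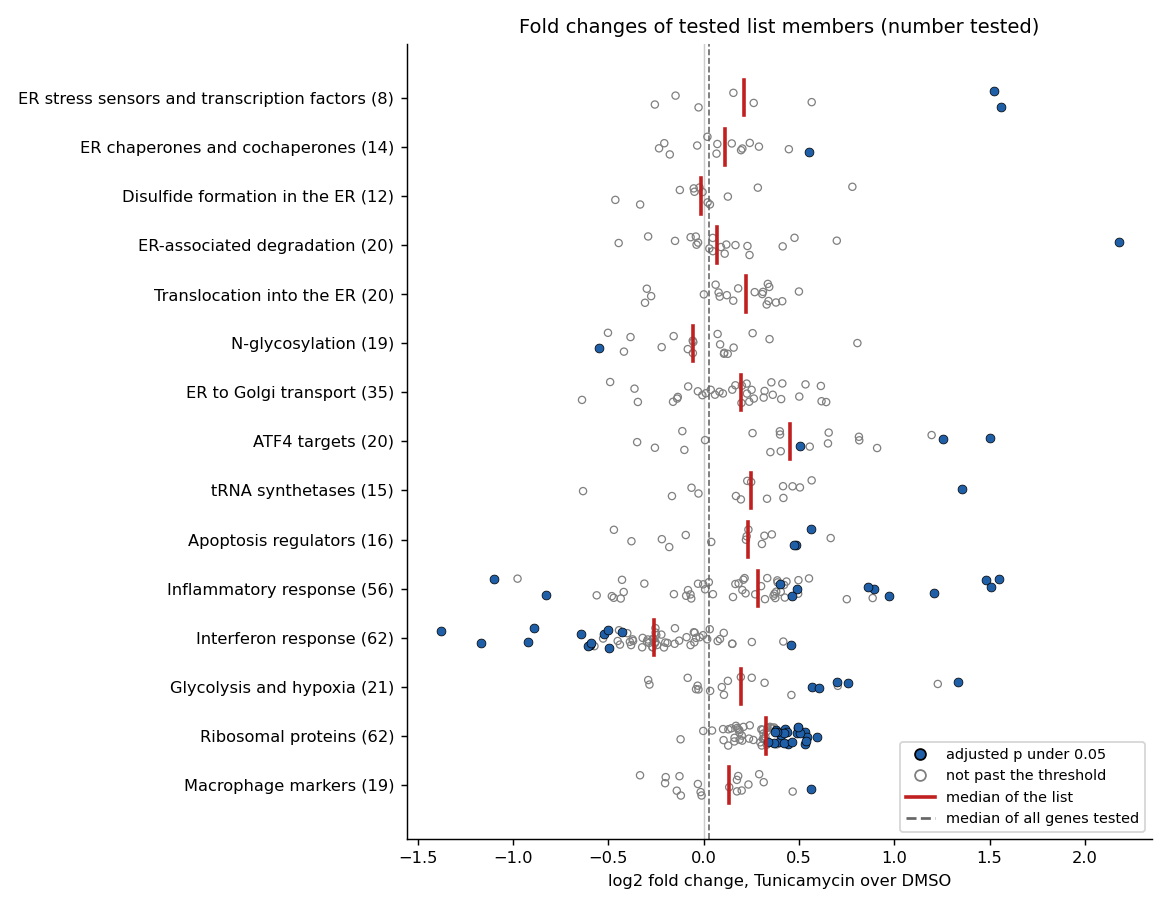
Log2 fold change of Tunicamycin over DMSO (horizontal axis) for each tested member of 15 gene lists (rows, with the number tested), filled where the adjusted p was under 0.05, with the median of each list in red and the median of all genes tested as a dashed line. In the 7 ER lists of the upper rows few members are filled, where 4.78% of all genes tested were called. Inflammatory members are filled mostly to the right, interferon members mostly to the left and ribosomal protein members form a narrow band to the right.

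The inflammatory arm of the LPS response was partly higher. In the inflammatory list, 56 members were tested, of which 10 rose (17.9%, against 3.41% of all genes tested) and 2 fell (median 0.29, 39 above 0). The counts were 12 and 2 without plate 2 well F, and 9 and 3 with wells summed. Saa3, an acute phase protein secreted by macrophages (ENSMUSG00000040026.8, chromosome 7, 46711998 to 46715700 of mm10), had 133 to 995 (median 458) CPM in Tunicamycin libraries and 109.8 to 265 (median 163) in DMSO libraries, where NoStim libraries had a median of 18.7. Tunicamycin libraries of plate 1 held 589 to 995 CPM, and those of plate 2 133 to 326, with wells E and F of plate 2 inside the DMSO range. Saa3 rose by 1.55 ± 0.17 on the log2 scale (adjusted p = 3.69e-12), with 2.03 on plate 1 and 0.82 on plate 2. Cxcl3, a neutrophil chemokine, had 83.3 to 170.4 (median 120.2) CPM in Tunicamycin libraries and 24.7 to 71.2 (median 35.99) in DMSO libraries. The groups did not overlap (1.48 ± 0.21, adjusted p = 8.53e-08).

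The related chemokine Cxcl1 had 92.0 to 591 (median 280.2) CPM in Tunicamycin libraries and 38.8 to 218 (median 126) in DMSO libraries (1.21 ± 0.19, adjusted p = 2.03e-06). Levels differed by plate in both groups, and within each plate every Tunicamycin library lay above every DMSO library. Ptges, prostaglandin E synthase, had 1.51 ± 0.29 (adjusted p = 0.000143), and Mmp14, a membrane-bound matrix protease, 0.97 ± 0.18 (8.49e-05). Clec4e, a receptor for microbial glycolipids, had 864 to 1845 (median 999) CPM in Tunicamycin libraries and 496 to 752 (median 624) in DMSO libraries, again with no overlap (0.86 ± 0.12, adjusted p = 1.23e-07). Cxcl2 had 0.90 ± 0.19 (adjusted p = 0.0011), and plate 2 well F, at 5273 CPM, lay far above the other Tunicamycin libraries (highest 1809). The log2 fold change without this library was 0.45 (adjusted p = 0.0654).

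Tnf and Il6, main cytokines of the LPS response, did not pass. Tnf had 994 to 1861 (median 1280.4) CPM in Tunicamycin libraries and 946 to 1323 (median 1043) in DMSO libraries (0.21 ± 0.12, adjusted p = 0.365). Il1b was just past the threshold (0.40 ± 0.13, adjusted p = 0.0474), in 2 of the 8 fits without 1 library, and not with wells summed (adjusted p = 0.132). Il6 had 0.15 ± 0.21 (adjusted p = 0.755). The members that fell were Socs1, a feedback inhibitor of cytokine receptors (-1.10 ± 0.21, adjusted p = 0.000143), and Il12b, the shared subunit of IL-12 and IL-23. Il12b had 69.0 to 239 (median 156) CPM in Tunicamycin libraries and 218 to 401 (median 254) in DMSO libraries (-0.83 ± 0.16, adjusted p = 0.000234), with 1 Tunicamycin library, plate 1 well E, inside the DMSO range. In the list of LPS sensing genes, 1 of 19 rose (5.26%, against 3.41% of all genes tested) and 0 fell (median 0.04). It was the LPS coreceptor gene Cd14, with 491 to 1193 (median 646) CPM in Tunicamycin libraries and 369 to 665 (median 449) in DMSO libraries (0.57 ± 0.13, adjusted p = 0.00191). Cd14 was also the only macrophage marker of 19 tested to rise (again 5.26%), and 0 fell. In bulk samples, fewer cells of a type and less RNA per cell cannot be told apart.

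**Figure D4:**
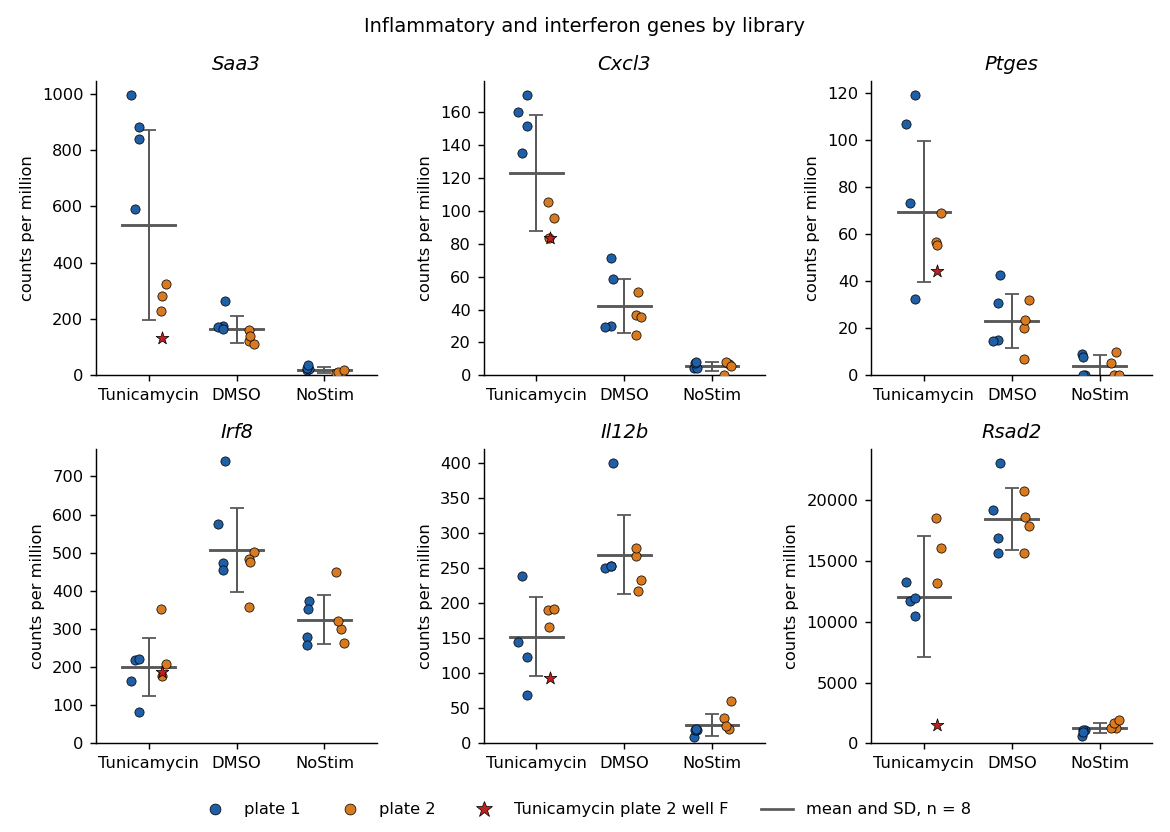
CPM (vertical axes, from 0) of 6 genes of the LPS response in the 8 Tunicamycin, 8 DMSO and 8 NoStim libraries, coloured by plate, with the mean and SD of each group; a star marks Tunicamycin plate 2 well F. Saa3, Cxcl3 and Ptges are higher and Irf8 and Il12b lower in Tunicamycin than in DMSO, and for Rsad2 the starred library lies at the NoStim level.

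The interferon arm was partly lower. Of 62 tested members of the interferon list, 12 fell (19.4%, against 1.37% of all genes tested) and 1 rose (median -0.26, 10 above 0). Irf8, a transcription factor of macrophage and interferon genes (ENSMUSG00000041515.10, chromosome 8, 120736358 to 120756694 of mm10), had 81.1 to 353 (median 197) CPM in Tunicamycin libraries and 357 to 739 (median 479) in DMSO libraries. The groups did not overlap, and NoStim libraries had a median of 309. On the log2 scale the fold change was -1.38 ± 0.14 (adjusted p = 6.41e-15), and -1.38 without plate 2 well F, -1.77 on plate 1 and -1.05 on plate 2. Cxcl9, a chemokine for T cells, had 34.5 to 128 (median 64.4) CPM in Tunicamycin libraries and 101 to 202 (median 165) in DMSO libraries (-1.17 ± 0.20, adjusted p = 2.03e-05). Iigp1, an immunity-related GTPase, had -0.92 ± 0.19 (adjusted p = 0.00111; -0.79 without plate 2 well F), and Cmpk2, a nucleotide kinase beside the antiviral gene Rsad2, -0.89 ± 0.18 (0.000864; -0.74).

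Part of this result came from 1 library. The summed level of the interferon list was 11225 CPM in Tunicamycin plate 2 well F, 37188 to 50534 in the other 7 Tunicamycin libraries, 45908 to 64260 in DMSO libraries and 6801 to 13266 in NoStim libraries. Without this library 8 members fell and 1 rose, and the median was -0.17. On plate 1 alone 12 of 63 tested members fell (median -0.30), where 3.58% of all genes did. On plate 2 alone, with well F, 1 of 62 fell (median -0.28), where 0.0205% of all genes did. Iigp1 had 361 to 481 CPM in Tunicamycin libraries of plate 1, against 910 to 1097 in DMSO libraries. On plate 2 without well F it had 416 to 673, against 487 to 793. Rsad2 had 1472 CPM in well F of plate 2, 10489 to 18589 in the other Tunicamycin libraries and 15629 to 23114 in DMSO libraries. Its log2 fold change was -0.64 ± 0.17 with all libraries (adjusted p = 0.0167) and -0.50 without this well (adjusted p = 0.00476). The groups were apart for Rsad2 on plate 1, at 10489 to 13253 CPM against 15629 to 23114. They overlapped on plate 2 without well F, at 13162 to 18589 against 15697 to 20802. Ifit1, Ifit2 and Ifit3, antiviral genes of the same arm, did not pass (-0.25 ± 0.14, -0.32 ± 0.18 and -0.26 ± 0.20). The 1 member that rose was Irf1 (0.46 ± 0.15, adjusted p = 0.0489), a transcription factor of interferon genes, and with RLE scaling it did not pass, where 14 members fell and 0 rose.

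The same library held other differences. Fos and Egr1, immediate early genes, had 276 and 138 CPM in plate 2 well F, against at most 41.9 and 16.2 in the other Tunicamycin libraries. The chemokine receptor gene Cxcr4 had 231 CPM there and at most 44.6 in the others, and Id3 had 699 and at most 198. NoStim libraries had medians of 322, 12.5, 667 and 532 CPM for Fos, Egr1, Cxcr4 and Id3. Inflammatory genes in this library were not at the NoStim level: the summed inflammatory list was 43664 CPM in it, 43376 to 70102 in the other Tunicamycin libraries and 5968 to 8891 in NoStim libraries. Herpud1 (133 CPM), Atf4 (330) and Irf8 (187) in this library lay within the range of the other Tunicamycin libraries. Whether this well was treated as labelled was not tested.

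Some genes of glycolysis rose. Of 21 tested members of the glycolysis and hypoxia list, 5 rose (23.8%, against 3.41% of all genes tested) and 0 fell (median 0.20), 7 rose without plate 2 well F, and 3 with wells summed. Pgam1, phosphoglycerate mutase, had 99.9 to 174 (median 132) CPM in Tunicamycin libraries and 58.4 to 95.1 (median 79.5) in DMSO libraries. The groups did not overlap (0.76 ± 0.18, adjusted p = 0.00446). Slc16a3, a lactate exporter, had 1.34 ± 0.28 (adjusted p = 0.000896), and Ldha, lactate dehydrogenase, 0.61 ± 0.13 (0.0013), with 0.98 on plate 1 and 0.11 on plate 2. Pfkfb3, a regulator of glycolysis, and Pgk1 had 0.70 ± 0.18 (adjusted p = 0.0105) and 0.57 ± 0.17 (0.0343), and neither passed with wells summed (0.0664 and 0.14).

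Many ribosomal protein genes rose by small amounts. Of 62 tested members, 22 rose (35.5%, against 3.41% of all genes tested) and 0 fell, 60 lay above 0 and the median was 0.33. The largest change was in Rpl9 (0.60 ± 0.13, adjusted p = 0.00194), with 398 to 811 (median 495) CPM in Tunicamycin libraries and 276 to 494 (median 347) in DMSO libraries. The count depended on single libraries: 17 rose without plate 2 well F, 11 without well F of plate 1, 11 without well G of plate 1, and 6 without well H of plate 1. With wells summed 9 rose, and with RLE scaling 14. The summed level of the list was 41130 to 57550 CPM in Tunicamycin libraries of plate 1, against 30766 to 45683 in DMSO libraries, and 31602 to 38682 on plate 2, against 28759 to 34228. Ribosomal protein genes have many near-identical pseudogenes, and the sources used here do not say how reads shared with them were counted. The share of Rn45s also differed between plates, at 8.15% to 20.4% in Tunicamycin libraries of plate 1 and 15.5% to 24.8% on plate 2. In DMSO libraries it was 9.43% to 21.2% and 17.8% to 23.7%. With Rn45s and Lars2 left out of the counts, 237 genes were called, 233 of them shared with the main fit. All 72 named genes that were called, ribosomal protein genes among them, kept direction and call. Whether the share itself moved with these genes was not tested.

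Other lists held few called members or none. Psmc2 was called higher among 30 proteasome subunits (0.62 ± 0.19, median of the list 0.21), a share of 3.33% where 3.41% of all genes rose. Fth1, the ferritin heavy chain, was called higher among 17 NRF2 targets (0.36 ± 0.10), a share of 5.88%. Neither list held a called member without plate 2 well F or with wells summed. Ctss, a lysosomal protease, rose as well (0.36 ± 0.12, adjusted p = 0.0459), and not with wells summed (adjusted p = 0.167). Ccnd2, a cyclin that LPS induces, fell (-0.52 ± 0.12, adjusted p = 0.00284, and -0.40 without plate 2 well F). It was the only called member of 11 cell cycle genes, a share of 9.09% where 1.37% of all genes fell. It had 295 CPM in plate 2 well F, 1026 to 1751 in the other Tunicamycin libraries and 1669 to 2172 in DMSO libraries. No member passed among 9 sterol genes and 12 cytosolic heat shock genes in edgeR's test or in DESeq2, with 0 and 4 at an unadjusted p under 0.05.

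Outside the lists, the highest changes by the naming rule included Trappc11 (2.11 ± 0.50, adjusted p = 0.0046), Adora2b, an adenosine receptor (1.45 ± 0.28), Ier2 (1.41 ± 0.32), Tgfbi (1.38 ± 0.26), Id3 (1.35 ± 0.27) and Sphk1, sphingosine kinase (1.31 ± 0.37). Trappc11 rested on F wells: it had 119 and 158 CPM in well F of plates 1 and 2 and at most 41.6 in the other Tunicamycin libraries, against 0 to 22.1 in DMSO libraries. With wells summed its adjusted p was 0.0738. Adora2b had 30.5 to 103 (median 74.8) CPM in Tunicamycin libraries and 7.36 to 46.7 (median 22.1) in DMSO libraries, and 7 of 8 Tunicamycin libraries lay above every DMSO library. Id3, an inhibitor of helix-loop-helix factors, had 0.60 (adjusted p = 0.0412) without plate 2 well F.

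By the naming rule, the lowest changes outside the lists included Rbm45, an RNA-binding protein (-1.44 ± 0.31, adjusted p = 0.00174), Taf7 (-1.07 ± 0.31) and Slfn9 (-1.06 ± 0.31). Gnb4, a G protein subunit (-1.02 ± 0.19), Tmem2 (-1.01 ± 0.20) and Luzp1 (-0.95 ± 0.19) were also among them. Slfn9 was not called without plate 2 well F (adjusted p = 0.0617). Rbm45 had 16.2 to 95.8 (median 27.1) CPM in Tunicamycin libraries and 37.1 to 163 (median 103) in DMSO libraries. Tmem2, a cell surface hyaluronidase, had 56.8 to 429 (median 201) CPM in Tunicamycin libraries and 322 to 525 (median 416) in DMSO libraries, where NoStim libraries had a median of 41.8. Both overlapped between groups. Gnb4 had 34.5 to 125 (median 74.7) CPM in Tunicamycin libraries and 105 to 222 (median 157) in DMSO libraries, with -1.18 on plate 1 and -0.94 on plate 2. Mgat4a, a Golgi enzyme that branches N-glycans, fell as well (-0.91 ± 0.27, adjusted p = 0.0298), in 6 of the 8 fits without 1 library and not with wells summed (adjusted p = 0.0729).

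Tunicamycin was also set directly against BrefA, taken here as brefeldin A, which blocks transport from the ER to the Golgi and so disturbs the ER at another step. This contrast uses no DMSO library. It showed 482 genes higher and 360 lower in Tunicamycin libraries, which is 17% of 4963 (9.71% higher and 7.25% lower), and 514 and 403 without plate 2 well F. Part of the ER stress genes were lower with Tunicamycin than with BrefA. Of 8 ER stress sensors and transcription factors 2 were lower and 0 higher (median -0.57), of 14 ER chaperones 7 and 0 (-0.54), of 20 translocation genes 9 and 0 (-0.39), of 20 ER-associated degradation genes 6 and 1 (-0.33), of 20 ATF4 targets 8 and 2 (-0.76) and of 15 tRNA synthetases 6 and 0 (-0.68), where the median of all genes was -0.01.

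Herpud1 had 22.2 to 206 (median 103) CPM in Tunicamycin libraries, 186 to 416 (median 306) in BrefA libraries and 10.6 to 31.1 (median 21.2) in DMSO libraries, and the log2 fold change of Tunicamycin over BrefA was -1.57 ± 0.20 (adjusted p = 1.06e-10). Hyou1 had 109.5 to 215 (median 148) CPM in Tunicamycin libraries and 228 to 626 (median 301) in BrefA libraries, with no overlap (-1.12 ± 0.16, adjusted p = 6.89e-09). Dnajb9 had -2.39 ± 0.31 (1.44e-10), Hspa5 -1.13 ± 0.10 (2.79e-18), Ddit3 -1.62 ± 0.24 (8.84e-09) and Atf4 -1.09 ± 0.14 (8.93e-11). Gdf15, a stress cytokine, had 4.06 to 54.2 (median 11.3) CPM in Tunicamycin libraries and 101 to 230.1 (median 152) in BrefA libraries (-3.32 ± 0.28, adjusted p = 1.68e-20). The dose of neither compound is known, so these differences hold for the wells as treated.

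Most interferon genes were higher with Tunicamycin than with BrefA. Of 62 interferon genes 49 were higher and 0 lower (median 1.21), 51 and 0 without plate 2 well F. Iigp1 had 44.3 to 673 (median 452) CPM in Tunicamycin libraries, 4.77 to 70.4 (median 51.7) in BrefA libraries and 487 to 1097 (median 851) in DMSO libraries (3.09 ± 0.26, adjusted p = 1.07e-17). Saa3 had 133 to 995 (median 458) CPM in Tunicamycin libraries and 26.3 to 66.2 (median 57.8) in BrefA libraries, with no overlap (3.31 ± 0.20, adjusted p = 2.51e-29). Of 56 inflammatory genes 19 were higher and 10 lower (median 0.16). Il12b had 69.0 to 239 (median 156) CPM in Tunicamycin libraries, 779 to 1802 (median 1078) in BrefA libraries and 218 to 401 (median 254) in DMSO libraries (-2.93 ± 0.16, adjusted p = 3.49e-36), and Il1b had 1.68 ± 0.13 (1.498e-20). Macrophage markers were higher with Tunicamycin for 10 of 19 and lower for 0. Over all genes of this contrast, 9.71% were higher and 7.25% lower.

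**Figure D5:**
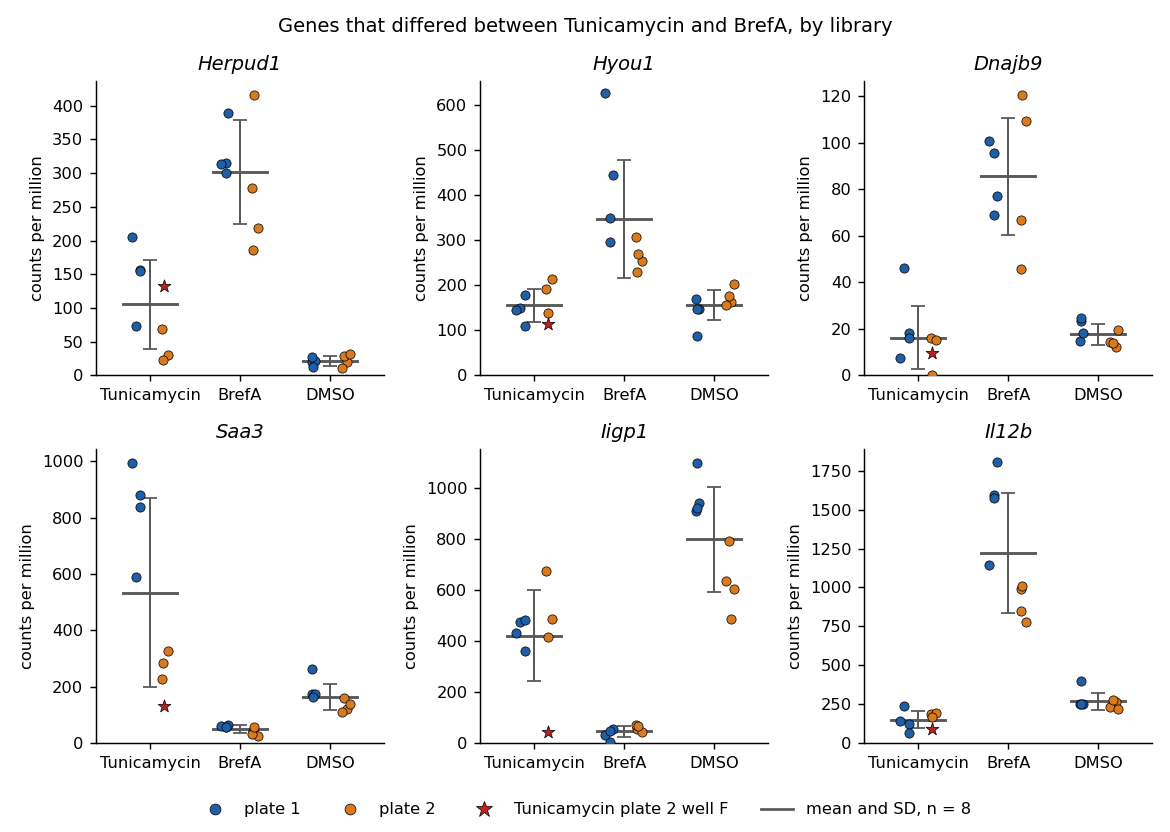
CPM (vertical axes, from 0) of 6 genes in the 8 Tunicamycin, 8 BrefA and 8 DMSO libraries, coloured by plate, with the mean and SD of each group; a star marks Tunicamycin plate 2 well F. Herpud1, Hyou1, Dnajb9 and Il12b are lower and Saa3 and Iigp1 higher in Tunicamycin than in BrefA libraries.

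Set against Halofuginone, which inhibits a tRNA synthetase and activates ATF4 through GCN2, Tunicamycin libraries had 1309 genes higher and 922 lower, 45% of genes tested (26.4% higher and 18.6% lower). Halofuginone libraries were shallower, with totals of 80196 to 136526 and 39.02% to 49.1% Rn45s, against 203117 to 360197 and 8.15% to 24.8% in Tunicamycin libraries, and the part of this gap in the result was not tested. Herpud1 had 22.2 to 206 (median 103) CPM in Tunicamycin libraries and 0 to 14.6 (median 4.46) in Halofuginone libraries (3.35 ± 0.51, adjusted p = 1.25e-08). Hspa5 and Atf4 were also higher with Tunicamycin (0.77 ± 0.12 and 0.56 ± 0.18), Ddit3 did not pass (-0.74 ± 0.34, adjusted p = 0.062), and Slc38a2 and Gdf15 were lower (-0.62 ± 0.24 and -3.81 ± 0.31). Ribosomal protein genes were higher with Tunicamycin for 61 of 62 (median 1.62, where all genes had 0.17). Fitted on these 2 groups alone, which left 1993 genes to test, 523 were higher and 628 lower, so the balance of directions depended on the fit.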

How the data were processed

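The deposited table holds whole-number read counts for 23481 gene symbols in 96 libraries, used as deposited; whether molecular barcodes were collapsed is not stated. Per the labels' protocols the libraries were 3′ digital gene expression libraries, and per the submitters' processing notes BWA and mm10 were used. Groups, plates and wells came from sample titles. Total counts per Tunicamycin or DMSO library lay between 201162 and 360197, so that 1 count was worth about 3 to 5 CPM.

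Genes passing edgeR's filter (4963) were fitted in edgeR 4.0.16 (TMM, robust quasi-likelihood test, group and plate as terms, all 96 libraries sharing the spread), with Benjamini-Hochberg adjustment and a threshold of 0.05. Values after ± are standard errors for log2 fold changes. DESeq2 1.42.0, RLE scaling, other filters, each plate alone, summed wells and left-out libraries were alternatives, and the procedure was tested on simulated data. Rn45s was kept in totals and its omission was an alternative. Totals and Rn45s shares were compared by exact permutation. The plate interaction used the 16 libraries of both groups.

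Gene lists and members were chosen with earlier results of these data known, so list counts are descriptions. Text genes were taken as the 15 highest and 15 lowest called genes (at least 30 CPM in the higher group, same sign on both plates), up to 6 called members of each list, and the first 4 of each list. Acap2, Clec4e, Cxcl2, Cxcr4, Fcgr2b, Fgl2, Fos, Hnrnpa3, Irf1, Irf2, Pik3ap1, Ppfibp2, Rcl1, Stap1, Ubb, Xbp1, Atf3 and Ppp1r15a were named after their values were seen. One gene that met the rule is not reported here. Gene positions are from GENCODE M21 (mm10) and promoters from RefSeq (GRCm38.p6).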

Additional observations from a re-analysis of the deposited data

Results flagged for a closer look

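For 200 combinations of a gene or library measure with a group of 8 libraries, Tunicamycin or DMSO, the highest or lowest library was set against its nearest neighbour by Dixon's ratio, and 25 passed the 95% limit. Chance flags about 1 in 20 such groups where genes are not chosen by their values. Some genes were named after their values were seen (among those below Atf3, Cxcl2, Cxcr4, Fos, Ppfibp2, Ppp1r15a, Ubb and Xbp1), so the tally is a description.

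Plate 2 well F of Tunicamycin was high for Cxcl2 (5273 CPM), Cxcr4 (231), Egr1 (138), Fos (276), Gdf15 (54.2), Id3 (699), Ppfibp2 (172) and Ppp1r15a (315), and low for Rsad2 (1472). Other Tunicamycin libraries stood apart for 1 or 2 measures each. Plate 1 well G was high for Atf3 (351 CPM), plate 1 well H was high for Chac1 (20.3) and low for Xbp1 (32.4), plate 1 well E was high for Dnajb9 (46.2), plate 2 well G was high for Rbm45 (95.8), and plate 2 well H had the largest total (360197 counts).

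Among DMSO libraries, plate 1 well G was high for Atf3 (339 CPM), Ddit3 (38.9), Ifit3 (626), Il12b (401), Saa3 (265) and Ubb (490.3), and low in the share of Rn45s (9.43%). Plate 2 well F was high for Atf6 (46.1 CPM), plate 2 well G for Calr (1431) and plate 2 well E for Chac1 (4.06). DMSO plate 1 well G lies on the far side of the Tunicamycin level for Il12b and on the near side for Ddit3 and Saa3.

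The change by Tunicamycin differed between plates for Stap1, by 1.94 on the log2 scale as plate 2 minus plate 1 (adjusted p = 0.0302), and for Fcgr2b, by -1.91 (adjusted p = 0.0486). Without plate 2 well F both were at an adjusted p of 0.05003.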

How the results depend on the processing

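Against DMSO, the count of 237 called genes changed with the choice of libraries and fit. Leaving out 1 Tunicamycin library gave 111 to 266, and wells F, G and H of plate 1 each moved it by more than 1.5 times (137, 115 and 111). It was 121 without plate 2 well F and plate 1 well H, 143 with no filter, 112 with the 2 groups fitted alone (206 when plate 2 well F was also left out), 124 with wells summed, 356 on plate 1, 5 on plate 2 and 4 on plate 2 without well F. RLE scaling gave 221, DESeq2 243 and omission of Rn45s and Lars2 237. The share of higher genes among those called was 71.3%. It was 61.4% with a filter of 20 CPM, 58.9% with the 2 groups alone, 56.8% with these and without plate 2 well F, and 48.6% on plate 1, where more genes were lower than higher.

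Against BrefA, where 842 genes were called, the count was 548 with the 2 groups alone, 371 on plate 2 and 415 on plate 2 without well F. Against Halofuginone, where 2231 were called, it was 1151 with the 2 groups alone, 1041 with these and without plate 2 well F, and 1378 and 1403 on plate 2 with and without well F. The interaction count of 2 was 0 without plate 2 well F. Fitting fewer libraries or summing wells leaves fewer degrees of freedom and another set of tested genes; other causes were not tested.

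Of 72 named genes that were called, 67 kept direction and call with DESeq2, 69 with RLE scaling, 45 with wells summed and 63 without plate 2 well F. A sign turned in Rpl32, a ribosomal protein gene, on plate 2 without well F (-0.00134), and in Ppfibp2 on plate 1 (-0.21). With plate and well letter as a replicate block, 277 genes were called against DMSO, 900 against BrefA and 2215 against Halofuginone. Within a plate, deviations of same-lettered Tunicamycin and DMSO wells correlated at -0.0855 to 0.183 (mean 0.0514, above 0.1 in 3 of 8 pairs). Wells of different letters correlated at a mean of -0.0175 (above 0.1 in 2 of 24). The labels do not say that letters pair the groups, so the main fit held no pairing, and these values do not settle it. Across plates within a group, same-lettered wells correlated at 0.00494 to 0.247 (mean 0.119, above 0.1 in 5 of 8 pairs), and wells of different letters at a mean of -0.0392 (above 0.1 in 1 of 24).

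At these depths a gene of 10 CPM is 2 to 4 counts in a library, which limits Ddit3, Chac1, Asns and the ER sensors most.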

Other observations

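Across the 12 groups of the series, the ER genes Herpud1 and Hspa5 had their highest medians in Tunicamycin and BrefA libraries. Herpud1 had a median of 103 CPM in Tunicamycin libraries and 306 in BrefA libraries, and 4.46 to 27.9 in the other 10 groups. Hspa5 had 1024 and 2344, and at most 921 in another group (Caspase-1). The median of Atf4 was 348 in Tunicamycin libraries, 722 in BrefA libraries and 347 in tBHQ libraries, and 116 to 159 in the rest. Ddit3 had a median of 34.5 CPM in Tunicamycin libraries, below BrefA (129), tBHQ (92.5) and Halofuginone (46.6), and near NoStim (31.9), and it was lowest in DMSO libraries (9.42). Ranges of Tunicamycin and NoStim libraries overlapped for Ddit3, at 22.99 to 72.4 and 10.9 to 62.4 CPM.

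Saa3 had its highest median in Dexa libraries (800.1 CPM), followed by Tunicamycin (458), and the median of BrefA libraries was 57.8. Irf8 had a median of 197 CPM in Tunicamycin libraries, between tBHQ (228) and BrefA (93.5), and the DMSO median (479) was exceeded only by that of Torin (513). These levels are descriptions with 8 libraries a group and were not tested here outside the contrasts reported.

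A few genes stood high in wells of one letter on both plates and were chosen after their values were seen. Pik3ap1, an adaptor of PI3 kinase signalling, had 958 and 1295 CPM in well F of Tunicamycin on plates 1 and 2, 988 and 1205 in well H of BrefA, and 519 and 748 in well F of DMSO. These were the 6 highest values among 96 libraries, where the median was 129 and the next value 473. Trappc11 had 119 and 158 CPM in well F of Tunicamycin, 78.2 and 87.6 in well F of BrefA and 57.9 and 74.8 in well F of Halofuginone, where the median of 96 libraries was 20.1. Acap2 had 266 and 187 CPM in well F of Tunicamycin, 134 and 78.8 in well F of BrefA, 164 and 212 in well F of Halofuginone, and 33.1 and 17.7 in well F of DMSO.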
